A study of Mus musculus with 27 samples.

Results

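The 6 genes described here, Saa3, Serpina3n, Hp, Orm1, Lcn2 and Ptx3, code for acute-phase proteins that fat tissue can make. They were taken by symbol from the annotation of the array, and among the probe sets that name 1 gene each was read from the one that was brightest on average over 27 arrays. All 6 were measured, of 18193 genes in all. RNA came from the epididymal adipose tissue (EAT) of male C57BL/6J mice that carried no stated mutation, arrived at an age of 5 weeks and had 1 week of acclimation. For 18 weeks, 9 mice per group ate the AIN93G control diet, a Western diet, or that Western diet with 0.05% quercetin added, a plant flavonol. The Western diet supplied 39.9% of energy as fat, with 20% butter, 1% soy oil and 0.15% cholesterol in it, while sucrose gave 34.0% of energy. Each mouse had 1 array, 3 mice shared a cage, and which mice shared one is not given in the sources used here.

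Acute-phase proteins are secreted proteins whose production rises in inflammation, driven mainly by interleukin 6 through STAT3 and by interleukin 1 and tumour necrosis factor through NF-kappaB and C/EBP factors. The liver makes most of them for plasma. Adipocytes, macrophages and fibroblasts of fat also make some, and serum amyloid A3 in the mouse is known mainly from tissues other than liver. Their roles differ, from binding haemoglobin or iron carriers to inhibiting proteases and marking microbes and debris for removal.

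Arrays were checked for other tissues before the genes were read. The 10 measured adipocyte markers had a mean log2 signal between 11.95 and 12.47 on every array, as the tissue label of fat would have it, while the deposited extraction text speaks of liver. Of 20 liver markers 17 were measured, and Cyp2e1 and Pck1 among them are also made by fat. Their mean log2 signal formed a gradient and was over 6 on 10 arrays, namely control replicates 1 and 4, Western diet replicates 1, 4, 5 and 6, and quercetin replicates 1, 2, 5 and 8. It was highest on Western diet replicates 4 (10.70) and 6 (9.69), and the highest value among the other 17 arrays was 5.37. Testis markers were high on control replicate 6 (12.72), and smooth muscle markers on control replicates 2 (11.09) and 4 (11.61). The highest testis values on the other diets were 8.83 (Western diet replicate 7) and 8.66 (quercetin replicate 5). Epididymis markers were highest on quercetin replicate 3 (6.24), the lowest quercetin mouse for Saa3, Hp and Serpina3n. For several results the values without some of these arrays are given beside them.

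Saa3 and Serpina3n had higher signals in mice fed the Western diet, compared with the control diet, and none of the 6 genes was lower. Among all genes tested with limma, 11.3% were higher and 6.42% lower at an adjusted p under 0.05 (2052 and 1168 genes, or 2323 and 580 with a median shift in place of quantiles). The median log2 difference of the 6 genes was 0.63, against 0.000289 over all genes, and 5 of the 6 were higher at an unadjusted p under 0.05, as were 17.6% of all genes, with 13.1% lower. With quercetin added, none of the 6 passed against the Western diet, where 0.253% of all genes were higher and 0.0824% lower. Saa3 and Hp were lower there at an unadjusted p under 0.05, as were 6.43% of all genes, with 7.29% higher, and the median log2 difference of the 6 was -0.38, against 0.0189 over all genes. Against the control diet, Saa3 and Serpina3n were also higher with quercetin, where 5.01% of all genes were higher and 1.65% lower. At an unadjusted p under 0.05, 4 of the 6 were higher and 1 lower there, against 14.6% and 7.36% of all genes. In a test of the 3 diets together 2 of the 6 genes passed, Saa3 (adjusted p = 0.000248) and Serpina3n (adjusted p = 0.00128), as did 16% of all genes. Every pair of diets overlapped for each of the 6 genes, whereas all 9 mice of one diet lay apart from all 9 of the other for 0.94% of genes (higher) and 0.346% (lower) on the Western diet against the control diet. For quercetin these shares were 0.214% and 0.055% against the Western diet and 0.225% and 0.022% against the control diet.

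**Figure D1:**
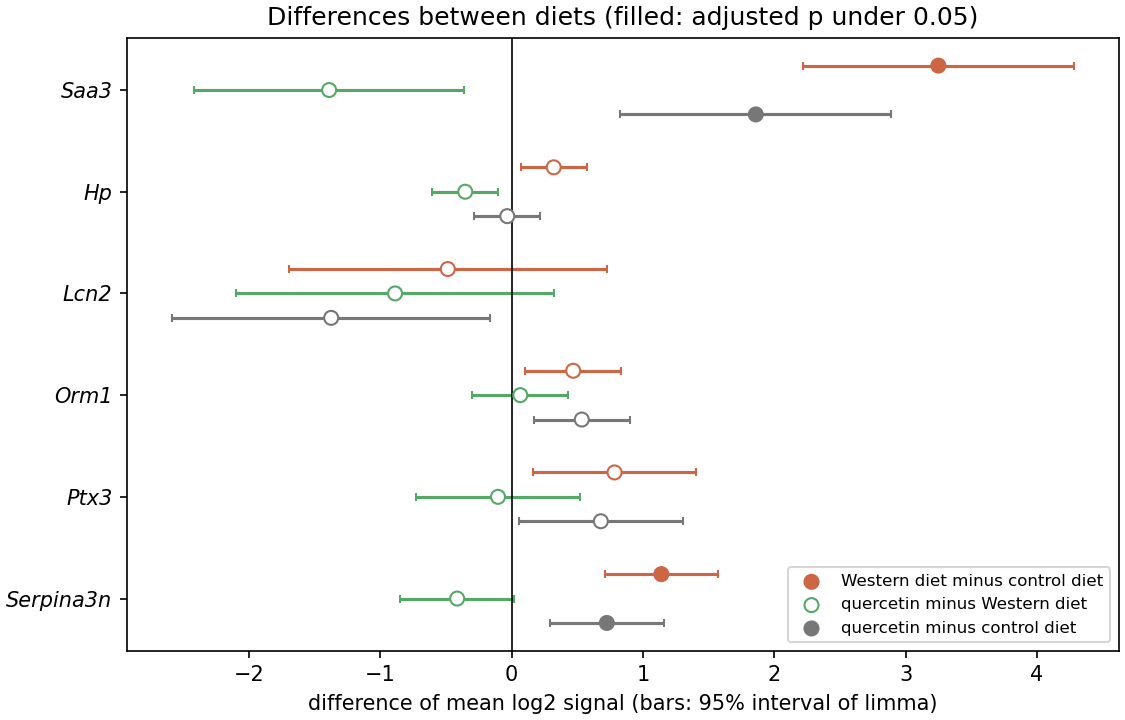
Differences of mean log2 signal between diets (horizontal axis, log2 units) for the 6 acute-phase genes (vertical axis), with 95% intervals from limma, 9 mice per diet. Filled points passed an adjusted p under 0.05, and these are Saa3 and Serpina3n for the Western diet and for quercetin against the control diet.

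Saa3 codes for serum amyloid A3, an apolipoprotein that joins high-density lipoprotein and acts on macrophages in inflamed tissue. The gene lies at chr7:46711998-46719615 (GRCm38.p6). The log2 signal on the control diet was lowest at 5.91 (replicate 9), had a median of 6.66 and was highest at 10.24 (replicate 3). On the Western diet these values were 9.37 (replicate 9), 10.59 and 11.18 (replicate 7). With quercetin they were 7.28 (replicate 3), 9.35 and 10.47 (replicate 8). Control replicate 3 was the exception among controls, since it reached the level of the Western diet, while the next highest control was at 8.92 (replicate 1). Apart from it, no control mouse overlapped with a Western diet mouse, and 7 of the 9 Western diet mice exceeded every control.

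Between the control diet and the Western diet Saa3 rose 9.51-fold (log2 difference 3.25 ± 0.50 SE, 95% interval 2.22 to 4.28, adjusted p = 6.43e-05, limma). Only 0.126% of all genes had a larger absolute difference in that comparison. With quercetin Saa3 had a log2 difference of -1.39 from the Western diet (95% interval -2.42 to -0.36), with an unadjusted p of 0.0100 and an adjusted p of 0.187, which did not pass. The mice on quercetin fell over a wide range, with replicates 1, 2 and 3 between 7.28 and 8.03 and replicates 5, 7 and 8 between 10.20 and 10.47. Of these 9 mice, 5 lay below every Western diet mouse. Against the control diet the mice on quercetin were 3.63-fold higher (log2 difference 1.86, 95% interval 0.83 to 2.89, adjusted p = 0.0260). That call was lost when control replicate 9 or quercetin replicate 7, 8 or 9 was left out (highest adjusted p 0.058). In tissue RNA of this kind, fewer cells of a type and less RNA per cell cannot be told apart.

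Western diet replicates 4 and 6, which had the most liver transcripts, had log2 signals of 9.96 and 10.37 for Saa3, inside the range of the other 7. Without them the log2 difference between the Western and control diets was 3.34 (adjusted p = 0.000136). Without all 10 arrays with liver markers over 6 it was 3.39 (adjusted p = 0.00342), while the difference of quercetin from the control diet was 2.08 and no longer passed (adjusted p = 0.129).

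Serpina3n codes for a secreted inhibitor of serine proteases of the antichymotrypsin family. Its gene lies at chr12:104406646-104414334. The control mice ran from 8.35 (replicate 4) over a median of 9.93 to 10.70 (replicate 3) in log2 signal. Western diet mice ran from 10.64 (replicate 3) over 10.93 to 11.39 (replicate 6). Western diet replicates 4 and 6, which had the most liver transcripts, had 11.14 and 11.39. Mice on quercetin ran from 9.80 (replicate 3) over 10.57 to 11.02 (replicate 5). Control replicate 3 was the 1 control inside the range of the Western diet, and control replicate 1 (10.64) lay just under it. Control replicate 4 lay below all others. It had the most smooth muscle transcripts and was also among the 10 arrays with liver markers over 6.

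The Western diet mice were 2.20-fold higher in Serpina3n than the controls (log2 difference 1.14 ± 0.21 SE, 95% interval 0.71 to 1.57, adjusted p = 0.000367). Without Western diet replicates 4 and 6 alone the log2 difference was 1.06 (adjusted p = 0.00203, limma). Without the 5 arrays that had the highest liver, testis or smooth muscle markers (control replicates 2, 4 and 6 and Western diet replicates 4 and 6) the log2 difference was 0.76 (adjusted p = 0.00480). From the Western diet to quercetin the log2 difference was -0.42 (95% interval -0.85 to 0.02, adjusted p = 0.391). From the control diet to quercetin it was 0.72 (95% interval 0.29 to 1.16, adjusted p = 0.0379), and this call was lost without any 1 of control replicates 4, 5, 6, 7 and 9 or quercetin replicates 4 to 9. Without the same 5 arrays it was 0.43 (adjusted p = 0.145).

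The upstream sequences of these 2 genes are shown because they were the 2 that passed the test. Both come from RefSeq (GRCm38.p6), written 5' to 3' on the strand of the gene, with the 250 bases before the start that the RefSeq promoter table uses for each gene. Capitals mark matches on either strand to letters of sites bound by factors of the acute-phase response, namely TTNNGNAA for C/EBP, TTCNNNGAA for STAT and 3 G, any 2 bases, 3 T and 2 C for NF-kappaB. The Saa3 window is chr7:46715677-46715926 on the minus strand, and the Serpina3n window is chr12:104406458-104406707 on the plus strand. These starts lie inside the gene positions given above, so all 250 bases of the Saa3 window and the last 62 of the Serpina3n window fall within them.
Saa3: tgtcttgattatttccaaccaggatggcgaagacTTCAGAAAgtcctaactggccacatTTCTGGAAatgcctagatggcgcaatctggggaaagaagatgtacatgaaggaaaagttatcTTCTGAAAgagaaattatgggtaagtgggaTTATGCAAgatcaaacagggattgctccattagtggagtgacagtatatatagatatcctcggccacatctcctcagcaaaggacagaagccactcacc
Serpina3n: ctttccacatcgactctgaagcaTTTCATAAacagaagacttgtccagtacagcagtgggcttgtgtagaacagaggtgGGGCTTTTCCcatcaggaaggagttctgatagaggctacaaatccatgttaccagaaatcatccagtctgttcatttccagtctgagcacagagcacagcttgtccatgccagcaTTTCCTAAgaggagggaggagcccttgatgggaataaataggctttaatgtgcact

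The Saa3 window held 4 matches to the C/EBP letters, beginning 216, 191, 129 and 99 bases before the start of that table, and no overlap among them. Of 32851 windows of the same length 36.8% held at least 1 such match and 0.591% held at least 4. Serpina3n had 2 matches to these letters (at least 2 in 10.9% of windows) and 1 to the NF-kappaB letters, GGGCTTTTCC, 171 bases before its start in the table (1.41% of windows). Lcn2 and Ptx3 had 1 match each to the C/EBP letters. The STAT letters were found in 7.02% of all windows and in none of the 4 windows read here. These are matches of letters, and binding was not measured.

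Hp codes for haptoglobin, which binds free haemoglobin in plasma and is made by liver and by adipocytes. Its gene lies at chr8:109575128-109579172. It varied little, with log2 signals of 12.22 (replicate 4), 12.81 and 13.07 (replicate 1) as the lowest, median and highest control. The 9 Western diet mice lay within 12.93 to 13.23 (median 13.08), and 6 of them exceeded every control. On quercetin the lowest was 11.92 (replicate 3), the median 12.88 and the highest 13.12 (replicate 6), and 7 of 9 lay below every Western diet mouse.

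The Western diet was 1.25-fold above the control diet for Hp (log2 difference 0.32, 95% interval 0.07 to 0.57, adjusted p = 0.0689), which did not pass. Quercetin had a log2 difference of -0.35 from the Western diet (95% interval -0.60 to -0.10, unadjusted p = 0.00735, adjusted p = 0.166). Quercetin and control mice had means 0.03 apart (95% interval of the difference -0.28 to 0.22). Leaving out control replicate 1 or quercetin replicate 3 brought the first of these below the threshold (lowest adjusted p 0.020), so whether Hp counts as higher on the Western diet turned on 1 mouse. Without Western diet replicates 4 and 6 the difference of the Western from the control diet was 0.32 (adjusted p = 0.108, limma). Without the 5 arrays with the highest liver, testis or smooth muscle markers, which include control replicates 2, 4 and 6, it was 0.18 (adjusted p = 0.392).

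Orm1 codes for orosomucoid 1, a plasma glycoprotein of the lipocalin family that carries small lipophilic molecules. The gene lies at chr4:63344556-63348163. The log2 signal of the control mice ran from 10.16 (replicate 5) over 11.39 to 12.02 (replicate 1). Western diet mice ran from 11.52 (replicate 8) over 11.77 to 11.83 (replicate 3), and mice on quercetin from 11.71 (replicate 5) over 11.80 to 11.96 (replicate 6). The 9 controls spread over 1.86 log2 units, while each of the other diets stayed within 0.31, and 2 controls exceeded every Western diet mouse.

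For Orm1 the Western diet had a log2 difference of 0.47 from the control diet (95% interval 0.10 to 0.83, adjusted p = 0.0664) and quercetin one of 0.53 (95% interval 0.17 to 0.90, adjusted p = 0.0662). Neither passed, but the first passed when control replicate 1, 2, 3 or 7 was left out (lowest adjusted p 0.021), and the other when control replicate 1, 3 or 7 was (lowest adjusted p 0.023). Without Western diet replicates 4 and 6 the first was 0.45 (adjusted p = 0.126, limma). Quercetin and the Western diet differed by 0.07 (95% interval -0.30 to 0.43, adjusted p = 0.930).

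Ptx3 codes for pentraxin 3, a long pentraxin that binds complement component C1q and microbes and is made locally by macrophages, endothelium and fibroblasts. It lies at chr3:66219887-66225806, and 2 of its probe sets name it alone. On the brighter of them, control mice ran from 5.38 (replicate 6) over 6.35 to 7.51 (replicate 3) in log2 signal. Western diet mice ran from 5.88 (replicate 9) over 7.005 to 8.07 (replicate 1), and mice on quercetin from 5.66 (replicate 6) over 7.09 to 7.57 (replicate 9). The 3 diets overlapped broadly, although 3 Western diet mice exceeded every control.

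On that probe set the Western diet had a log2 difference of 0.78 from the control diet (95% interval 0.16 to 1.41, adjusted p = 0.0739), and it passed without control replicate 3 or Western diet replicate 9 (lowest adjusted p 0.023). Quercetin had a log2 difference of -0.10 from the Western diet (adjusted p = 0.935) and 0.68 from the control diet (adjusted p = 0.184). The other probe set was dim, with a mean log2 signal of 3.14, and went the opposite way on the Western diet, with a log2 difference of -1.50 from the control diet (adjusted p = 0.0412 in a fit of all probe sets). The 2 probe sets of Ptx3 thus give no settled direction for the Western diet.

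Lcn2 codes for lipocalin 2, which binds the iron carriers of bacteria and is secreted by neutrophils, epithelia and adipocytes. Its gene lies at chr2:32384637-32387739. In log2 signal, controls ran from 5.08 (replicate 7) over 9.26 to 9.96 (replicate 6). The range on the Western diet was 6.03 (replicate 9) over 7.93 to 9.65 (replicate 2), and on quercetin 5.06 (replicate 2) over 6.83 to 9.53 (replicate 6). Its spread was wide within every diet and the 3 ranges overlapped, although only 1 Western diet mouse and 1 quercetin mouse exceeded the control median.

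The Western diet had a log2 difference of -0.49 from the control diet for Lcn2 (95% interval -1.70 to 0.72, adjusted p = 0.625), the 1 negative value among the 6 genes there. Quercetin had -0.89 from the Western diet (95% interval -2.10 to 0.32, adjusted p = 0.561). From the control diet it had -1.38 (95% interval -2.59 to -0.16, unadjusted p = 0.0275, adjusted p = 0.163), and this passed without control replicate 7 (adjusted p 0.035).

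**Figure D2:**
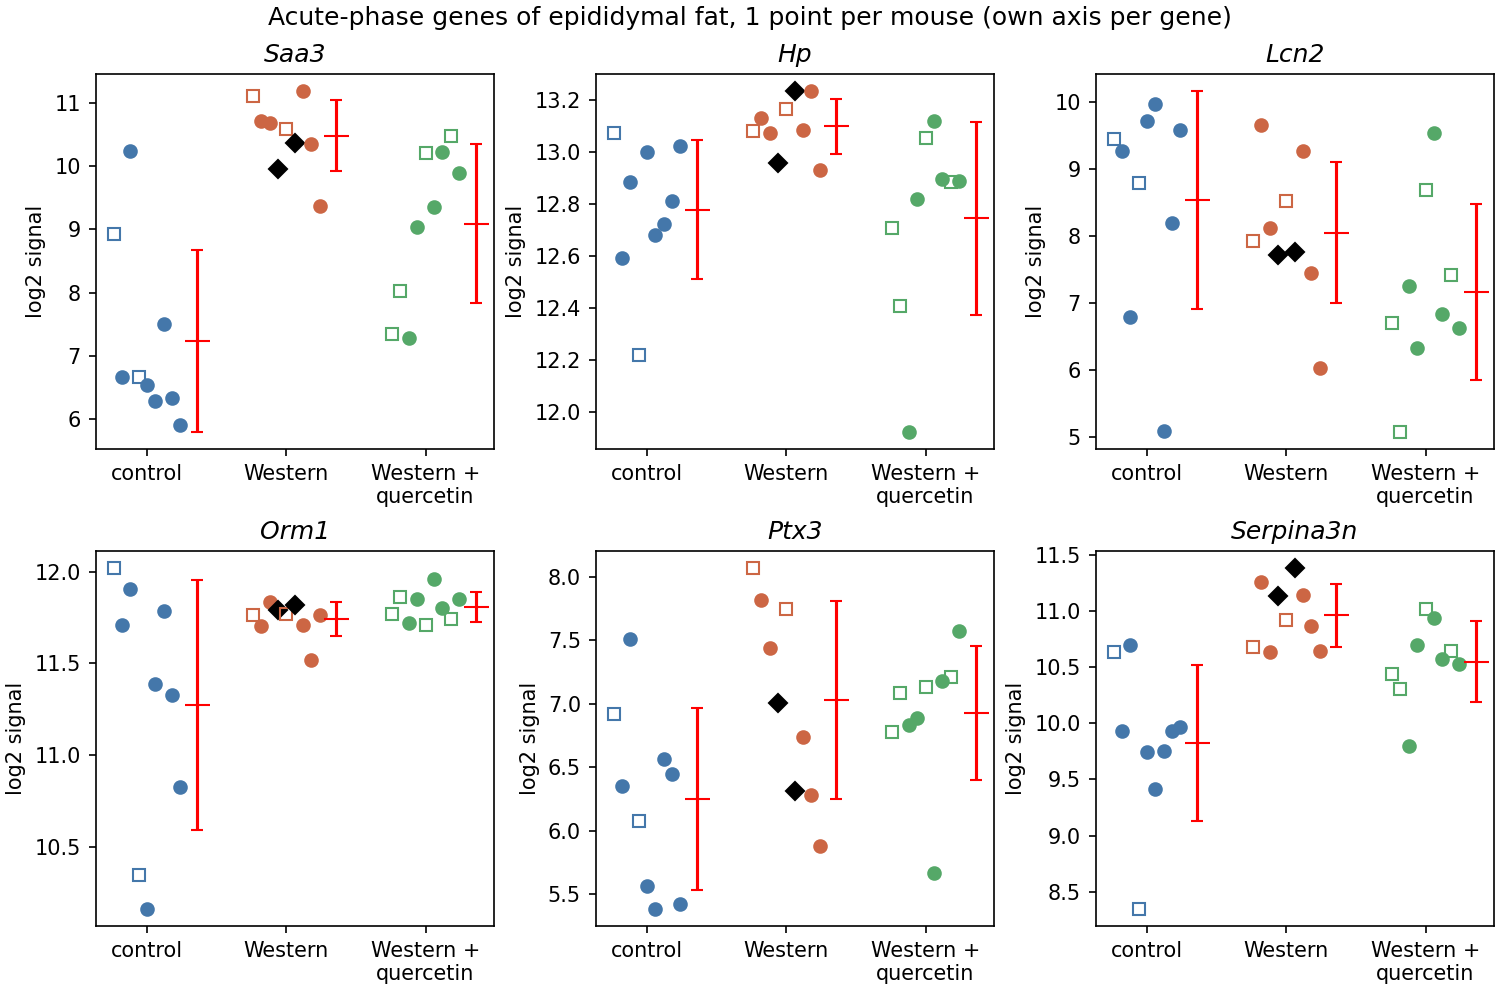
Log2 signal of each of the 6 acute-phase genes in every mouse (vertical axes, 1 scale per gene) by diet (horizontal axis), with mean and SD in red, 9 mice per diet. Black diamonds mark Western diet replicates 4 and 6 and open squares the other 8 arrays with liver markers over 6, and for Saa3 the Western diet mice lie between 9.37 and 11.18 while 8 of 9 controls lie at 8.92 or lower.

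Other acute-phase genes were read from a list of 27, of which 20 were measured. The median log2 difference of the 20 on the Western diet was 1.02. There 7 of the 20 were higher and none was lower, against 11.3% and 6.42% of all genes. Among them were Hpx, the heme carrier hemopexin (log2 difference 2.52, adjusted p = 0.0315), and Orm2, a second orosomucoid (1.94, adjusted p = 0.000329). Saa1, a serum amyloid of plasma, had 1.89 (adjusted p = 0.00887), Lbp, which hands lipopolysaccharide to its receptor, had 1.11 (adjusted p = 0.00359), and Cd14, that receptor on macrophages, had 1.10 (adjusted p = 0.00228). Many genes of this list are made mainly by liver. Without Western diet replicates 4 and 6 the median of the 20 was 0.24 and 6 were higher, as were 1822 of all 18193 genes. Hpx had 1.59 there and did not pass (adjusted p = 0.156). Without all 10 arrays with liver markers over 6 the median was 0.19 and 6 were higher, as were 1075 of all 18193 genes. In that fit Hpx had 1.64 (adjusted p = 0.00838) and Lbp 1.07 (adjusted p = 0.0647).

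With quercetin 18 of these 20 genes had values below the Western diet, with a median log2 difference of -0.59, and none passed. The smallest p was that of Mt2, a metallothionein that binds zinc and copper, with a log2 difference of -0.64 (adjusted p = 0.0809). Without Western diet replicates 4 and 6 the median was -0.09 and 2 genes were lower, Mt2 at -0.71 (adjusted p = 0.0439) and Cd14 at -0.97 (adjusted p = 0.0370). Over all 18193 genes 166 were lower in that fit. Against the control diet 1 gene, Orm2, was higher with quercetin (1.40, adjusted p = 0.0184), as were 5.01% of all genes.

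The signals that induce acute-phase genes were read from the ligand to the nucleus. None of 9 measured ligands passed for the Western diet, and Il6, interleukin 6, had a log2 difference of 0.97 (adjusted p = 0.0631). The ligand list was dim, with array means of 3.31 to 4.76 on the control diet and 3.70 to 4.66 on the Western diet. The median gene had a mean log2 signal of 6.46. A ligand that did not pass can therefore not be read as unchanged. Il6 passed in 5 of 42 other ways of fitting the data, with values from -0.02 to 1.24, and one of them left out Western diet replicates 4 and 6 (1.13, adjusted p = 0.0478). Without the 5 arrays Clcf1, a ligand of the interleukin 6 family, was lower (-0.73, adjusted p = 0.0297). On the Western diet, where 11.3% of all genes were higher, 3 of the 9 receptors and antagonists were higher. These were Il1rn, the interleukin 1 receptor antagonist (log2 difference 2.28, adjusted p = 3.99e-05), Tnfrsf1b, the second receptor of tumour necrosis factor (1.03, adjusted p = 0.000256), and Osmr, the oncostatin M receptor (0.64, adjusted p = 0.00173). Of 14 signalling genes, Jak1, a kinase of cytokine receptors, and Myd88, an adaptor of interleukin 1 and Toll-like receptors, were higher by 0.36 (adjusted p = 0.000991) and 0.29 (adjusted p = 0.0202). This count of 2 in 14 lies near the 11.3% of all genes that were higher.

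With all arrays in the fit, quercetin had no ligand or receptor gene past the test against the Western diet. Lif, a ligand of the interleukin 6 family, had the smallest p among the ligands (log2 difference -0.27, adjusted p = 0.634), and Tnfrsf1b among the receptors (-0.59, adjusted p = 0.127). Without Western diet replicates 4 and 6 Tnfrsf1b was lower (-0.77, adjusted p = 0.0359), as were 166 of all 18193 genes. Without all 10 arrays with liver markers over 6 it did not pass (adjusted p = 0.414), and no other gene of the 18193 did. Jak1 was lower with quercetin (log2 difference -0.32, adjusted p = 0.0472). It was the only gene of the ligand, receptor and signalling lists that passed for quercetin against the Western diet with all arrays, and it passed in 19 of 43 other ways of fitting the data, with values from -0.43 to -0.25.

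Receptors and partners of the 6 proteins made up a further list, with 19 of 21 genes measured. On the Western diet 7 were higher and 1 lower, against 11.3% and 6.42% of all genes. C1qb, C1qc and C1qa, the chains of the complement component that pentraxin 3 binds, were higher by log2 differences of 1.48 (adjusted p = 5.29e-05), 1.39 (adjusted p = 5.08e-05) and 1.23 (adjusted p = 5.07e-05), and C1qa also stands among the macrophage markers below. Tlr2, a Toll-like receptor for which serum amyloid A is a ligand, was higher by 1.00 (adjusted p = 0.000223). Mmp9, a gelatinase that binds lipocalin 2, was lower (log2 difference -1.10, adjusted p = 0.0171). With all arrays none of the 19 passed for quercetin against the Western diet, where C1qa had the smallest p (log2 difference -0.69, adjusted p = 0.0826). Without Western diet replicates 4 and 6 the 3 chains were lower with quercetin, with log2 differences of -0.89 for C1qa (adjusted p = 0.0267), -0.997 for C1qb (adjusted p = 0.0324) and -0.95 for C1qc (adjusted p = 0.0282). Over all 18193 genes 166 were lower in that fit. Without all 10 arrays with liver markers over 6 none of the 19 passed (C1qa adjusted p = 0.384), and no other gene of the 18193 did. Over 43 other ways of fitting the data C1qa had log2 differences of -0.95 to -0.60.

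**Figure D3:**
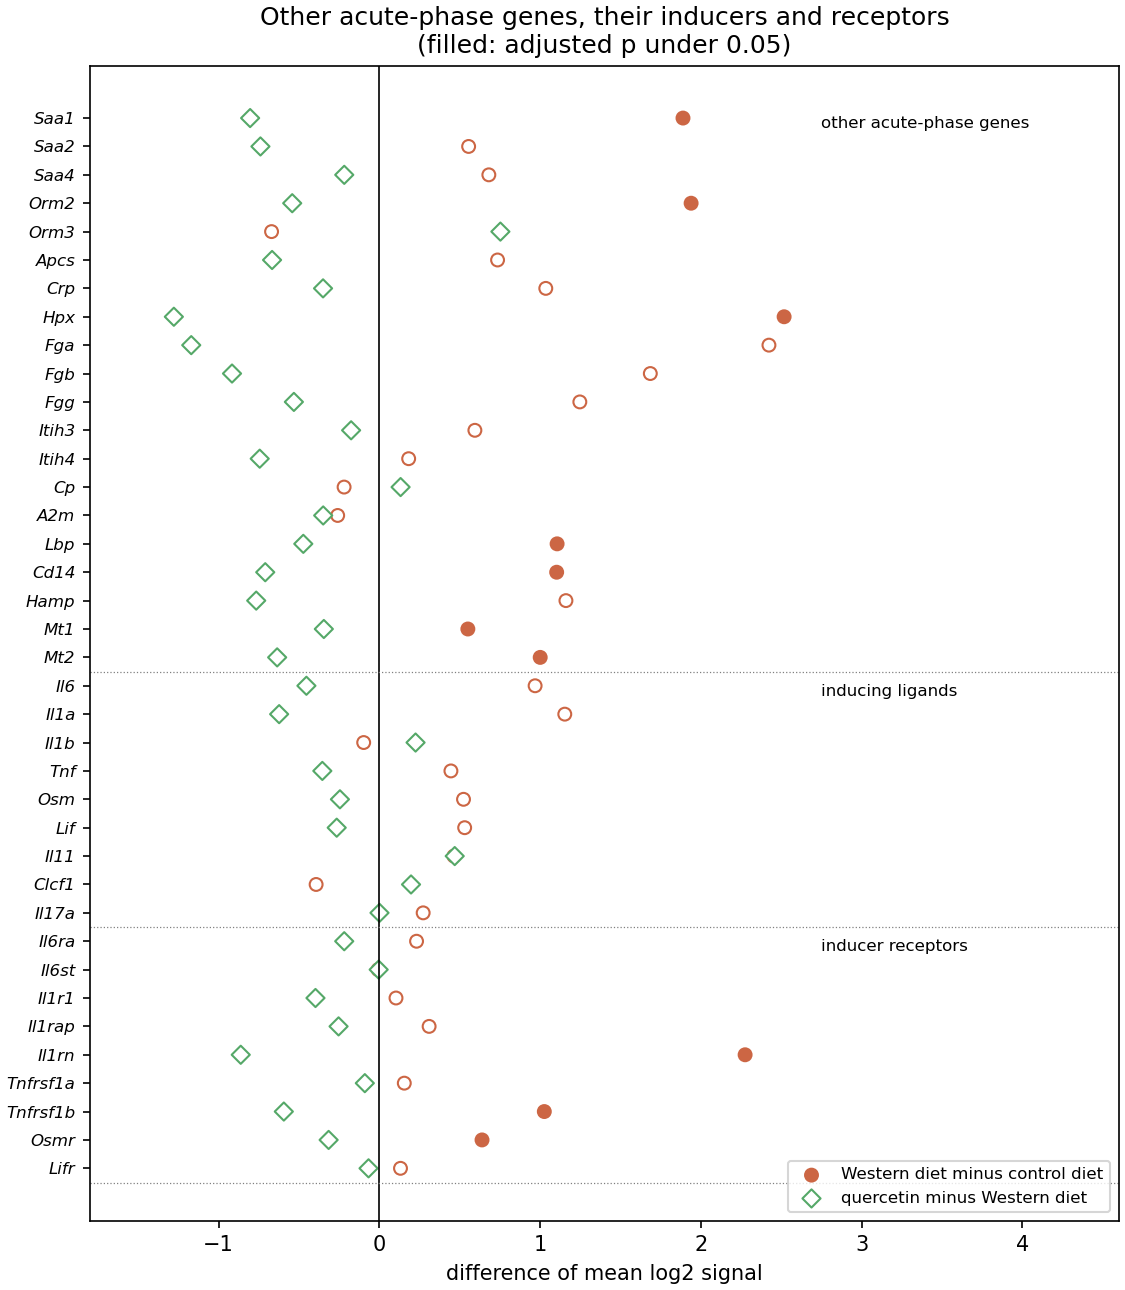
Differences of mean log2 signal (horizontal axis) of the measured genes among the other acute-phase genes, the inducing ligands and their receptors (vertical axis), with circles for Western diet minus control diet and diamonds for quercetin minus Western diet. Filled symbols passed an adjusted p under 0.05, which 7 of 20 acute-phase genes and 3 of 9 receptors did for the Western diet and no gene did for quercetin.

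Macrophage markers were higher on the Western diet. Of 18 macrophage markers 14 were higher on the Western diet and none lower, against 11.3% and 6.42% of all genes. Their median log2 difference was 1.51. Adgre1, Cd68 and Csf1r, the first markers of that list, were higher by 1.86, 2.52 and 0.84 (adjusted p = 6.44e-06, 2.83e-05 and 0.000426). The mean log2 signal of the list ran from 7.06 to 8.80 on the control diet, from 8.59 to 9.80 on the Western diet and from 7.63 to 9.39 with quercetin. With quercetin its median log2 difference from the Western diet was -0.85 and none passed, where 15 of all 18193 genes were lower. Without Western diet replicates 4 and 6, 7 markers were lower, against 166 of all genes. Without the 5 arrays 11 markers were lower, against 451 of all genes. Without all 10 arrays with liver markers over 6 no marker passed, but neither did any other gene, and the list median was -0.94.

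Among 12 neutrophil markers S100a8 (log2 difference 1.91) and Csf3r (0.72) were higher on the Western diet. These genes code for a calcium-binding protein of granulocytes and the receptor of their growth factor. This count of 2 in 12 lies near the 11.3% of all genes that were higher. The median log2 difference of the list was 0.19, and 8 of the 12 had positive values. Its mean ran from 3.32 to 4.21 on the control diet and from 3.63 to 4.41 on the Western diet. Of 12 mesothelial markers Cldn15 was higher (0.32) and Krt19 lower (-3.61), where 11.3% of all genes were higher and 6.42% lower. The median log2 difference of the list was -1.02, and 1 of the 12 had a positive value. List means ran from 5.47 to 7.62 on the control diet and from 3.22 to 6.38 on the Western diet. Fibroblast and adipocyte progenitor markers had 4 of 10 higher on the Western diet and none lower, with a median log2 difference of 0.34. These were Lum (1.41), Col1a1 (1.13) and Col3a1 (0.62), which code for a proteoglycan and 2 collagens of the matrix, and Pdgfra (0.38), a growth factor receptor. Their list mean ran from 9.46 to 10.33 on the control diet, from 10.02 to 10.52 on the Western diet and from 9.87 to 10.31 with quercetin, where 4 were higher than on the control diet and none passed against the Western diet. Of 8 smooth muscle markers Myh11 (-1.76) and Cnn1 (-3.77) were lower on the Western diet, with a median log2 difference of -0.76 and list means from 7.51 to 11.61 on the control diet, where replicates 2 and 4 were highest, and from 7.02 to 8.13 on the Western diet. Without the 5 arrays that median was -0.29 and 1 of the 8 was lower.

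The liver list had a median log2 difference of 1.49 on the Western diet, with none of 17 higher and 1 lower, Cyp2e1 (-1.33), and list means from 4.22 to 8.06 on the control diet, 4.30 to 10.70 on the Western diet and 4.25 to 8.84 with quercetin. No marker of these 6 lists was at the floor on all arrays of a diet. The part of macrophages, neutrophils, mesothelium, fibroblasts, smooth muscle or liver transcripts in the values of the 6 genes was not tested.

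Among mice on 1 diet, Saa3 went with the macrophage markers on 2 of the diets. Relations between pairs of the 6 genes, and between each gene and the mean of 5 marker lists, came to 45 per diet and 135 in all. Each r was computed again without the 2 mice that lay farthest from the middle of the first measure. On quercetin the macrophage list mean and Saa3 had Pearson r = 0.926 (exact permutation p = 0.000705, adjusted 0.0238) and Spearman rho = 0.950 (exact permutation p = 0.000353, adjusted 0.0476), n = 9, and r was 0.903 without replicates 7 and 8. Both rose with the replicate number there, from 7.63 to 8.10 (list) and 7.28 to 8.03 (Saa3) in replicates 1 to 3 to 9.18 to 9.39 and 9.89 to 10.47 in replicates 7 to 9. The permutation treats the 9 mice as exchangeable. Which mice shared a cage is not given, and an effect of cage or order was not tested. On the control diet they had r = 0.908 (exact permutation p = 0.000581, adjusted 0.0238), but rho was 0.767 (adjusted 0.453) and r fell to 0.655 without replicates 1 and 3. On the Western diet r was 0.476 (exact permutation p = 0.196), and no relation of the 45 passed there.

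Hp and Serpina3n went together on quercetin, with r = 0.955 (exact permutation p = 0.000179, adjusted 0.0238), rho = 0.833 (adjusted 0.279) and r = 0.871 without replicates 2 and 3. They had r = 0.816 on the control diet (adjusted p = 0.241 by exact permutation), which fell to 0.298 without replicates 1 and 4, and r = 0.386 on the Western diet. Control mice also had a relation of Saa3 with Ptx3 (r = 0.880, exact permutation p = 0.000364, adjusted 0.0238), with rho = 0.883 (adjusted 0.208) and r = 0.685 without replicates 1 and 3. Whether relations differed between diets was not tested, and none of the liver list with a gene of the 6 passed within a diet.

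**Figure D4:**
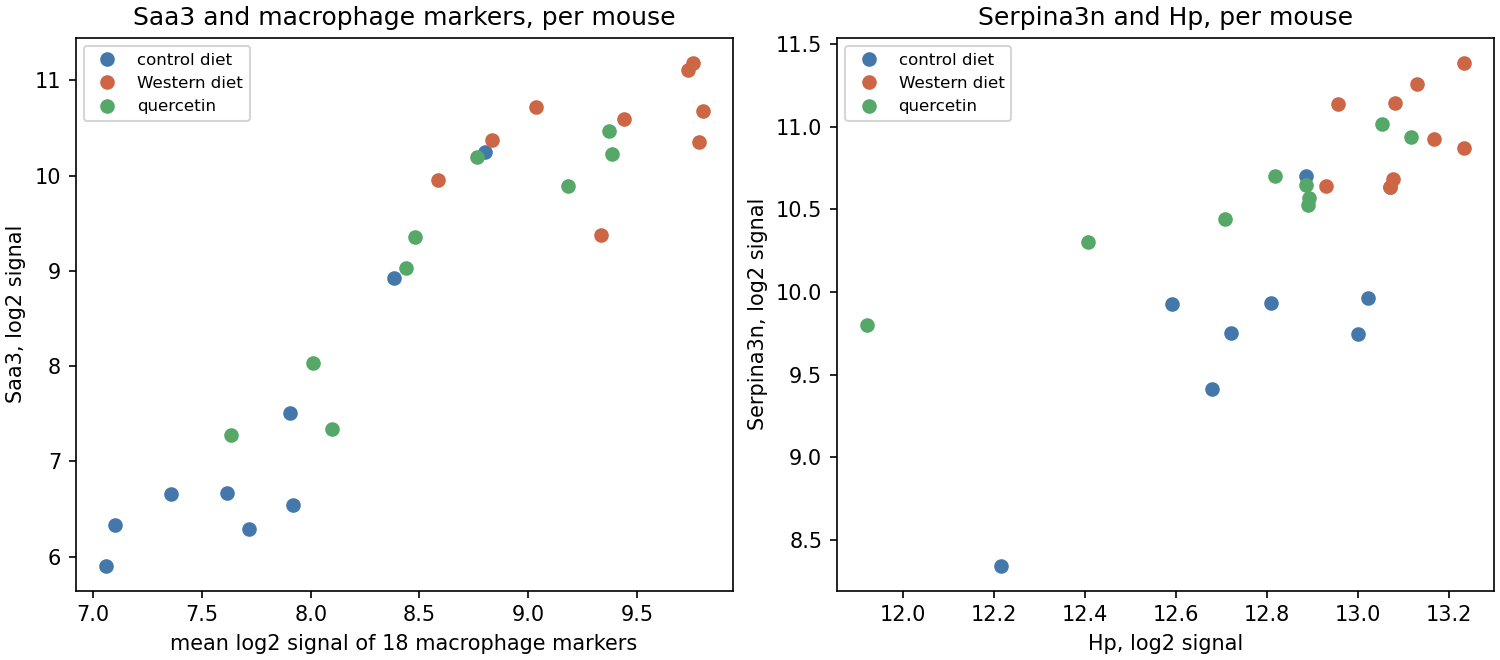
Log2 signal of Saa3 (vertical axis) against the mean log2 signal of 18 macrophage markers (horizontal axis) in the left panel, and of Serpina3n against Hp in the right panel, 1 point per mouse and coloured by diet. Mice on quercetin form a slope in both panels (r = 0.926 and 0.955), and Western diet mice sit at the upper end.

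Genes with the most similar pattern over mice were found from the deviations of 27 arrays from their diet means, over 9095 genes above the median mean, as a description. Closest to Saa3 were Tph2, a tryptophan hydroxylase (r = 0.909), Ubd, a ubiquitin-like protein induced by cytokines (r = 0.909), and Casp1, the protease that activates interleukin 1 beta (r = 0.894). Nearest to Hp were Lrg1, itself an acute-phase glycoprotein (r = 0.794), Dram1 (r = 0.794) and H2-K1, a class I histocompatibility chain (r = 0.776). Ptx3 had Ccl2 and Ccl7, chemokines for monocytes, as its nearest (r = 0.792 and 0.771), then Cybc1 (r = 0.767). Serpina3n had Sod3, an extracellular superoxide dismutase (r = 0.915), Col4a2, a basement membrane collagen (r = 0.904), and Cers4, a ceramide synthase (r = 0.871). Orm1 had Tuba1a, Cavin3 and Tsc22d2 (r = 0.863, 0.861 and 0.845), and Lcn2 had Fbxw9, Csrp2 and N4bp2 (r = 0.782, 0.739 and 0.715). All arrays share 1 normalization, and no p is given for these values.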

How the data were processed

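RNA of EAT from each of 27 mice was measured on 1 Affymetrix mouse array. The authors made the deposited linear signal intensities with Microarray Suite and GeneSpring. Array medians were not equal (25.2 to 54.4), and whether the arrays had been scaled by another measure was not tested. Quantile normalization was applied, 5.157% of values lay under 1 and were set to 1, and log2 was taken. Of 45101 probe sets, 64 controls, 932 naming several genes and 9224 unnamed here were left out. Each gene had 1 probe set, that with the highest mean. Genes were tested with limma 3.58.1 in R 4.3.3 with a mean for each diet fitted on all 27 arrays, a variance trend and Benjamini-Hochberg adjustment over 18193 genes. The code was tested on simulated data. Relations were tested by exact permutation, two-sided, and adjusted over 135. The mesothelial list was added to them after the data were seen. Python 3.11.15 with matplotlib 3.10.9 drew the figures.

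The 6 genes and all lists were chosen with earlier results of these data known. Genes named from a pathway list were up to 5 past the threshold with the largest differences on the Western diet and up to 2 for quercetin, or the one with the smallest p. Values named outside this rule were chosen after they were seen. Alternatives were a floor of 32, unscaled signals or a shift of medians, a pseudocount of 16, only the genes over the median mean, a gene's probe sets averaged or each tested, no variance trend, array weights, the methods' test (Welch's analysis of variance, then Tukey's test), 2 diets per fit, a replicate block and arrays left out. Leaving out the 10 arrays with liver markers and using the liver marker mean as a covariate were added after the data were seen. The number of arrays limits the precision. P-values measure the spread between mice, whose cages are not known.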

Additional observations from a re-analysis of the deposited data

Results flagged for a closer look

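In 18 groups (6 genes on 3 diets), 2 had a mouse far from the others of its diet, where chance gives about 1 in 20 groups. Orm1 was lowest at a log2 signal of 11.52 in Western diet replicate 8, and the nearest mouse had 11.71. Ptx3 was lowest at 5.66 in quercetin replicate 6, and the nearest had 6.78. Without that mouse the log2 difference of Ptx3 between quercetin and the Western diet was 0.05 (adjusted p = 0.971, limma) in place of -0.10.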

How the results depend on the processing

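Saa3 and Serpina3n stayed higher for the Western diet against the control diet in all 44 alternatives, with log2 differences of 2.996 to 3.63 and 0.76 to 1.28. Higher on the Western diet were 2 of the 6 genes, but 4 with a median shift (Hp 0.44 and Orm1 0.63 added) and 5 among genes above the median mean (Hp 0.32, Orm1 0.47 and Ptx3 0.78 added, with fewer genes tested, of which 1729 of 9096 were higher), and Hp (0.32) also passed by the methods' test and with 2 diets in the fit. With the mean of all probe sets, Ptx3 had -0.36 for the Western diet and 0.56 for quercetin against it, since its dim probe set runs the other way. Without the 5 arrays named above Lcn2 had 0.0054 on the Western diet.

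For quercetin against the Western diet, 2 genes were lower with array weights (Saa3 -1.37, Hp -0.32) and by the methods' test (Saa3 -1.39, Hp -0.35), and Orm1 had -0.0014 with a median shift. The cause was not tested. Over all genes that comparison gave 46 higher and 15 lower, from 0 and 0 without a variance trend (1327 and 1170 at an unadjusted p under 0.05 with one) to 762 and 617 with array weights, and 474 and 532 by the methods' test.

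For quercetin against the control diet, the count of 2 higher became 0 with no normalization (Saa3 1.83, Serpina3n 0.78), with 2 diets in the fit (1.86 and 0.72), without the 5 arrays (1.51 and 0.43) and without the 10 arrays with liver markers (2.08 and 0.59). It became 1 with a median shift (Serpina3n 0.77 lost), a floor of 32 or no variance trend (0.72 lost in each) and without the testis array (0.67 lost), and Orm1 (0.53) passed among genes above the median mean. Hp had 0.05 with no normalization and 0.034 with a median shift.

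Same-numbered mice did not deviate together (27 pairs, r from -0.33 to 0.18, 4 over 0.1, and 2 of 27 arrays closest to their own number), so no pairing by number across diets was seen. Whether the numbers follow cage or order within a diet was not tested. With the replicate number as a block, Ptx3 passed on the Western diet (0.78), and Saa3 (1.86, adjusted p = 0.052) and Serpina3n (0.72, adjusted p = 0.075) did not pass for quercetin against the control diet, leaving 0 higher.

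With 1 mouse left out, the genes higher on the Western diet numbered 2 to 4, with Hp at 0.25 to 0.36, Orm1 at 0.33 to 0.56 and Ptx3 at 0.65 to 0.94. For quercetin against the Western diet Ptx3 ran from -0.25 to 0.054. For quercetin against the control diet 0 to 3 genes were higher and 0 to 1 lower, with Saa3 at 1.69 to 2.24, Serpina3n at 0.54 to 0.83, Orm1 at 0.395 to 0.63, Lcn2 at -1.81 to -1.11 and Hp at -0.10 to 0.069. Dim probe sets, such as the other one of Ptx3, lie close to background, which limits their precision.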
